A study of Mus musculus with 10 samples.

Results

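The cyclic nucleotide phosphodiesterases described here are the 10 genes Pde1a, Pde1c, Pde2a, Pde3a, Pde3b, Pde4a, Pde4b, Pde4d, Pde5a and Pde8a, which were taken by name from the 23337 genes of the deposited right atrial count table. All 10 were present and all 10 passed the filter on low counts. Right atrial RNA was sequenced from 10 mice, 4 labelled control (M1, M2, F1 and F2) and 6 labelled Tbx5 mutant (F1, F2, F3, M1, M2 and M3), of mixed strain. Tbx5 is a T-box transcription factor of the heart. The mutants were designed to lose exon 3 of Tbx5 in adult life, on injection of tamoxifen. Their Cre is expressed from R26 throughout the body, so that recombination is not limited to cardiomyocytes. The same treatment, 0.167 mg of tamoxifen a day for 3 days with dissection 1 week later, is entered for both groups. The ages are entered as 8 to 10 weeks for both groups, and another field of the labels gives a younger range. The labels give the controls no allele. For its left atrial experiments the study describes Tbx5 fl/fl;R26CreERt2 mutants beside R26CreERt2 controls, so that there the controls carry the Cre as well, and it does not report these right atrial libraries. For library preparation the labels name kits for mRNA and also ribosomal RNA depletion, and which was used was not settled here.

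Phosphodiesterases hydrolyse cAMP and cGMP, the second messengers through which adrenergic, muscarinic, natriuretic peptide and nitric oxide signals act on atrial rate and contraction. The subfamilies differ in substrate and regulation. PDE4 enzymes are specific for cAMP, as are the high-affinity PDE8 enzymes, PDE5 is specific for cGMP, and PDE1, PDE2 and PDE3 hydrolyse both. PDE1 is stimulated by calcium and calmodulin, PDE2 is stimulated by cGMP and PDE3 is inhibited by it. In cardiomyocytes, PDE3 and PDE4 enzymes hold cAMP in small domains around calcium-handling proteins such as phospholamban and the ryanodine receptor.

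Several features of the libraries bear on every comparison. Tbx5 itself was higher in the mice labelled mutant, at 394 ± 83.3 CPM (reads per 1000000 counts of the TMM-scaled library; mean ± SD, n = 6) against 205 ± 17.8 CPM (n = 4), with a log2 fold change of 0.94 ± 0.15 (SE) and an adjusted p of 0.000495 (edgeR). A count per gene does not show whether exon 3 was lost, so the groups are named by their labels and each direction is relative to them. The 4 control libraries disagreed with their labelled sex: Xist had 7850 to 10149 reads in those labelled male and 5 to 14 in those labelled female, and the 6 mutant libraries matched theirs. Total counts were between 5703775 and 7095141 per library. Rn45s, a ribosomal RNA precursor, took 38.9% of the counts of mutant M3, which left 3484550 counts for other genes, and at most 1.49% in the other libraries. Cardiomyocyte markers summed to between 61297 and 89177 CPM over all libraries, so the labelled heart muscle was present. The ventricular markers (4 genes) summed to between 41.1 and 62.8 CPM in controls and between 609 and 848 CPM in mutants, and 2 of the 3 that were tested passed as higher. Most of the sum was Myl3, a ventricular light chain named after its value was seen, at a mean of 45.4 CPM in controls and 688 CPM in mutants. Fewer cells of a type and less RNA per cell cannot be told apart in whole tissue.

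Pde4a and Pde4d held the largest differences between the labelled groups among the members. Both were lower in all 6 mutants than in every control, and Pde4b was lower by a smaller amount. Pde2a was also lower in every mutant, while Pde1a, Pde1c, Pde3a, Pde3b, Pde5a and Pde8a did not pass the test. In all, 4 of the 10 members passed an adjusted p of 0.05 in the edgeR quasi-likelihood test, each lower in the mutants and none higher, where 31.3% of the 13084 tested genes passed, 15.0% as lower and 16.3% as higher. Of these, 2 were also past a fold change of 1.5 and are termed called, beside 15.7% of tested genes called, 7.16% lower and 8.5% higher. The median log2 fold change of the members was -0.23, against -0.0050 over all tested genes. After correction for transcript length the same 4 members passed as lower, and the medians were -0.02 for the members and -0.0042 for all tested genes.

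**Figure D1:**
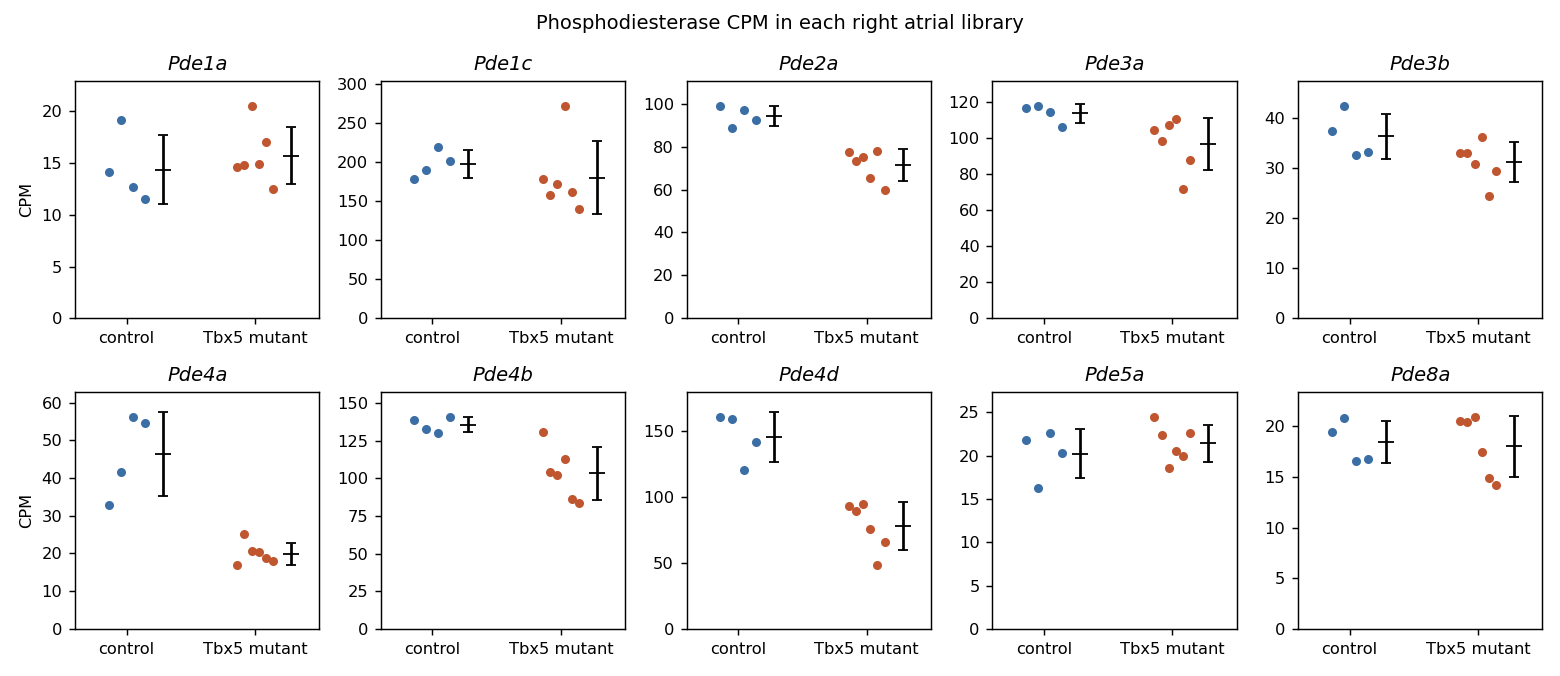
CPM (y axis, from 0) of each of the 10 phosphodiesterase genes in every library of the mice labelled control (blue, n = 4) and Tbx5 mutant (orange, n = 6); points are libraries and black marks are the mean and SD. Pde4a, Pde4d and Pde2a separate the groups, with mutant points below all control points, and 1 mutant stands high for Pde1c at 271 CPM.

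Pde4a encodes a cAMP-specific phosphodiesterase (GRCm38 chromosome 9, 21165714 to 21213248, plus strand). It measured 32.7, 41.7, 56.1 and 54.7 CPM in control M1, M2, F1 and F2. The mutants measured 16.9, 25.2, 20.6, 20.4, 18.8 and 18.0 CPM in F1, F2, F3, M1, M2 and M3. The highest mutant therefore lay below the lowest control, and the controls spread more widely than the mutants. Pde4a fell by 1.21 on the log2 scale (SE 0.15), or 2.31-fold, with an adjusted p of 7.62e-05 in the edgeR fit. The two-sided exact permutation p was 0.00476, the smallest that the 210 ways of choosing 4 of 10 mice can give.

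Pde4d encodes the PDE4 enzyme known for its association with the ryanodine receptor and with the slow delayed rectifier channel (chromosome 13, 108449948 to 109953461, plus strand). Its 20 annotated transcripts span 1503514 bases, the longest gene body of the 10. Control M1, M2, F1 and F2 held 161, 159, 121 and 142 CPM. Mutant F1, F2, F3, M1, M2 and M3 held 93.2, 90.0, 94.9, 75.9, 48.8 and 65.9 CPM. No mutant reached the lowest control. The log2 fold change was -0.90 ± 0.16 (SE), a 1.86-fold lower level in the mutants, with an adjusted p of 0.00100 in edgeR and an exact permutation p of 0.00476. Without mutant M3 the value was -0.86, with an adjusted p of 0.00246 in edgeR.

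Pde4b encodes the PDE4 enzyme known to control cAMP around the L-type calcium channel (chromosome 4, 102087543 to 102607259, plus strand). The controls were close together at 139, 133, 130 and 141 CPM in M1, M2, F1 and F2. The mutants ranged from 83.6 to 131 CPM with a median of 103 CPM. Of the 6 mutants, 5 lay below all controls, and F1 lay inside the control range. Pde4b fell by 0.39 on the log2 scale (SE 0.11), with an adjusted p of 0.0189 in edgeR, and its fold change was under 1.5. The exact permutation p was 0.0238.

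Promoter windows are shown for these 3 genes, the PDE4 members, all 3 of which were lower in the mutants. RefSeq windows (GRCm38.p6) of 300 bases, from 250 before to 50 after an annotated start, were found for 8 of the 10 members, 22 windows in all, and not for Pde3a and Pde3b. They were searched on both strands for the T-box core AGGTGT (reverse ACACCT) and the cAMP response element core TGACGT (reverse ACGTCA). No member window held both cores. The T-box core occurred in 3 of 22 member windows (13.6%) and in 13.7% of all 32851 windows, and the 3 belonged to Pde1a, Pde1c and Pde4b. The cAMP response element core occurred in 2 of 22 member windows (9.09%) and in 7.51% of all windows, 1 at Pde4a and 1 at Pde4b. Pde2a was lower in the mutants as well, and its windows, which held neither core, are not printed. Of the 3 windows of Pde4a and the 4 of Pde4b, those that hold a core are printed 5′ to 3′ as the 250 bases before the start, with the core in capitals, beside the 1 window listed for Pde4d, which held neither core.

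Pde4a, chr9:21183851-21184100, plus strand, reverse cAMP response element core beginning 51 bases before the start: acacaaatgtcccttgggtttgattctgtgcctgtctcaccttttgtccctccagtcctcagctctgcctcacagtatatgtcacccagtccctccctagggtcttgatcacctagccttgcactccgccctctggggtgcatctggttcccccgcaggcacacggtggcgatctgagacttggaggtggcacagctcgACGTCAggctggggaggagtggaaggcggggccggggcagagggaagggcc

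Pde4b, chr4:102421305-102421554, plus strand, the same core beginning 35 bases before the start: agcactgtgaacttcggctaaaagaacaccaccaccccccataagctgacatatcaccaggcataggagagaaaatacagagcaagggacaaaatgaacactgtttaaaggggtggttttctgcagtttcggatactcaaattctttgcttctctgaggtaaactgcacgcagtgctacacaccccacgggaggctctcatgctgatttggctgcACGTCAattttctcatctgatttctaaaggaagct

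Pde4b, chr4:102589593-102589842, plus strand, reverse T-box core beginning 216 bases before the start: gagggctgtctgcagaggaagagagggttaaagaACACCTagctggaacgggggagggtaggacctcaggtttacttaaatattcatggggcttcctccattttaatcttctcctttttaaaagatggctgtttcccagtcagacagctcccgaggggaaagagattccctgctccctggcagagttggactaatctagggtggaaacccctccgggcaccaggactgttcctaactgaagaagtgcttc

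Pde4d, chr13:108653927-108654176, plus strand, no match: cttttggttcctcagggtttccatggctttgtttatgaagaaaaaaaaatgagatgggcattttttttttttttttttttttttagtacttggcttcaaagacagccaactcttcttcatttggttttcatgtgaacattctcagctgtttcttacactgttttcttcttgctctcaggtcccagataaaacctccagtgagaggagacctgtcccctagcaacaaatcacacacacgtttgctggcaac

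A match is a description of letters and not of a bound site.

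The PDE4 members did not fall by the same amount. A ratio of 2 genes inside a library does not depend on how libraries are scaled, and 5 such log2 ratios of read counts were compared between members of a subfamily, with p-values adjusted over the 5. The ratio of Pde4a to Pde4b was -1.58 ± 0.38 (SD, n = 4) in controls and -2.37 ± 0.32 (SD, n = 6) in mutants, a difference of -0.78 with an exact permutation p of 0.00952 and an adjusted value of 0.0357. The ratio of Pde4d to Pde4b was 0.10 ± 0.17 in controls and -0.42 ± 0.26 in mutants, a difference of -0.52 with an exact permutation p of 0.0143, adjusted to 0.0357. Both ratios overlapped between the groups at the edges: the highest mutant value for Pde4a to Pde4b was -2.05 and the lowest control value was -2.09. The ratio of Pde4a to Pde4d differed by -0.26 between the groups, with an exact permutation p of 0.371, adjusted to 0.464.

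Ratios in the other 2 subfamilies with several members did not pass. Pde3a to Pde3b was 1.65 ± 0.14 in controls and 1.63 ± 0.09 in mutants, with an exact permutation p of 0.781. Pde1a to Pde1c was -3.80 ± 0.40 in controls and -3.50 ± 0.38 in mutants, with an exact permutation p of 0.262, adjusted to 0.437.

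**Figure D2:**
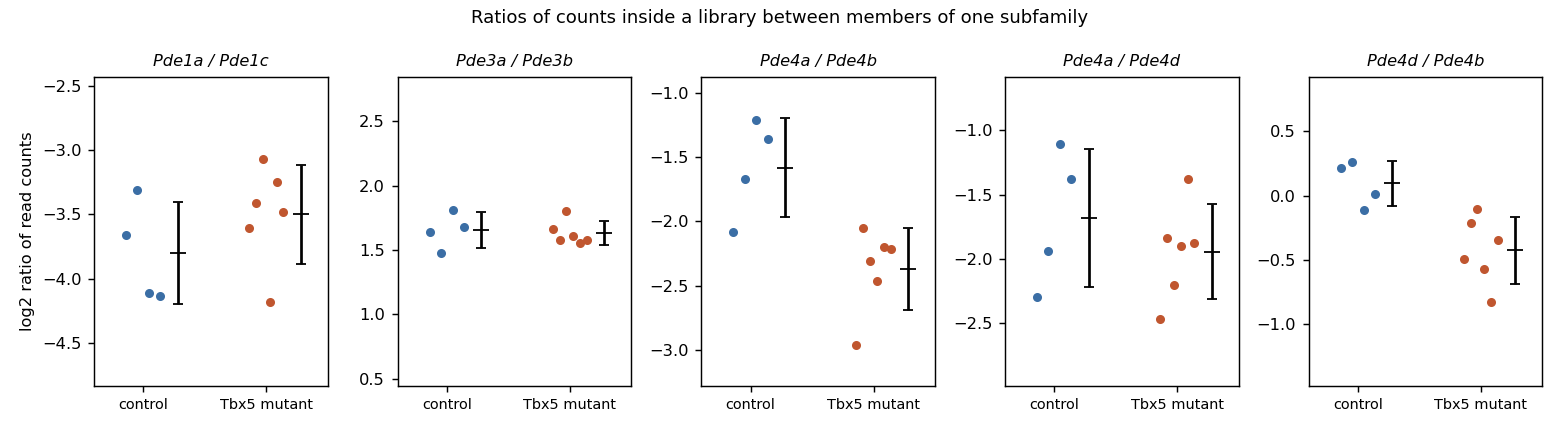
Log2 ratio of read counts between members of one subfamily inside each library (y axes span the same log2 width) for control (blue, n = 4) and Tbx5 mutant mice (orange, n = 6), with black marks for the mean and SD. Pde4a to Pde4b and Pde4d to Pde4b lie lower in the mutants, by 0.78 and 0.52, and Pde3a to Pde3b lies at 1.65 and 1.63.

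Pde2a, the cGMP-stimulated enzyme through which cGMP can lower cAMP, lies on chromosome 7 (101421691 to 101512827, plus strand). Its controls held 98.7, 88.5, 97.2 and 92.3 CPM in M1, M2, F1 and F2. The mutants held 77.6, 73.2, 75.0, 65.1, 77.9 and 59.6 CPM in F1, F2, F3, M1, M2 and M3, all below the controls. The log2 fold change was -0.40 ± 0.09 (SE), the smallest standard error of the 10 members, with an adjusted p of 0.00462 in edgeR and an exact permutation p of 0.00476. The fold change stayed under 1.5, so Pde2a was not called. In the reference annotation 64.3% of its exon bases are shared with Gm45837 on the same strand, a gene that the deposited table does not list, so that how reads from the shared bases were counted was not tested. With Pde4a and Pde4d, Pde2a made 3 of 10 members whose groups did not overlap with the mutants lower, beside 11.0% of tested genes. No member had groups that did not overlap with the mutants higher, beside 11.7%.

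The genes of the cGMP-inhibited enzymes, Pde3a and Pde3b, did not pass the test. Pde3a, the main PDE3 gene of cardiomyocytes (chromosome 6, 141249269 to 141507448, plus strand), held 117, 118, 115 and 106 CPM in control M1, M2, F1 and F2, and 71.9 to 111 CPM in the mutants with a median of 102 CPM. The groups overlapped through mutants M1 and F3. The log2 fold change was -0.23 ± 0.11 (SE) with an adjusted p of 0.128 in edgeR. Pde3b, a gene best known from fat and liver (chromosome 7, 114415281 to 114539251, plus strand), held 37.4, 42.4, 32.6 and 33.2 CPM in the same controls and 24.5 to 36.2 CPM in the mutants. Its log2 fold change was -0.22 ± 0.12 (SE) with an adjusted p of 0.164 in edgeR.

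The calcium and calmodulin-stimulated genes Pde1a and Pde1c did not pass the test either, and Pde1c turned on 1 library. Pde1c, known from cardiomyocytes (chromosome 6, 56069804 to 56569103, minus strand), held 179, 190, 220 and 202 CPM in control M1, M2, F1 and F2. It held 179, 158, 172, 271, 162 and 140 CPM in mutant F1, F2, F3, M1, M2 and M3. Mutant M1 was above all controls and the other 5 mutants were below all of them, F1 by a small margin. The log2 fold change was -0.13 ± 0.15 (SE) with an adjusted p of 0.542 in edgeR, and without mutant M1 it was -0.29 with an adjusted p of 0.0322. Pde1a (chromosome 2, 79834453 to 80129458, minus strand) held 14.2, 19.2, 12.7 and 11.5 CPM in the controls and 12.5 to 20.5 CPM in the mutants, with a log2 fold change of 0.15 ± 0.16 (SE) and an adjusted p of 0.520 in edgeR.

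The cGMP-specific Pde5a, the target of sildenafil (chromosome 3, 122728947 to 122859374, plus strand), held 21.9, 16.2, 22.6 and 20.3 CPM in control M1, M2, F1 and F2, and 18.5 to 24.4 CPM in the mutants. Its log2 fold change was 0.08 ± 0.12 (SE) with an adjusted p of 0.645 in edgeR. The cAMP-specific Pde8a (chromosome 7, 81213596 to 81334533, plus strand) held 19.4, 20.8, 16.6 and 16.8 CPM in the controls and 14.2 to 20.9 CPM in the mutants. Its log2 fold change was -0.02 ± 0.13 (SE) with an adjusted p of 0.939 in edgeR. Reads per library were 83 to 168 for Pde5a and 52 to 153 for Pde8a.

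**Figure D3:**
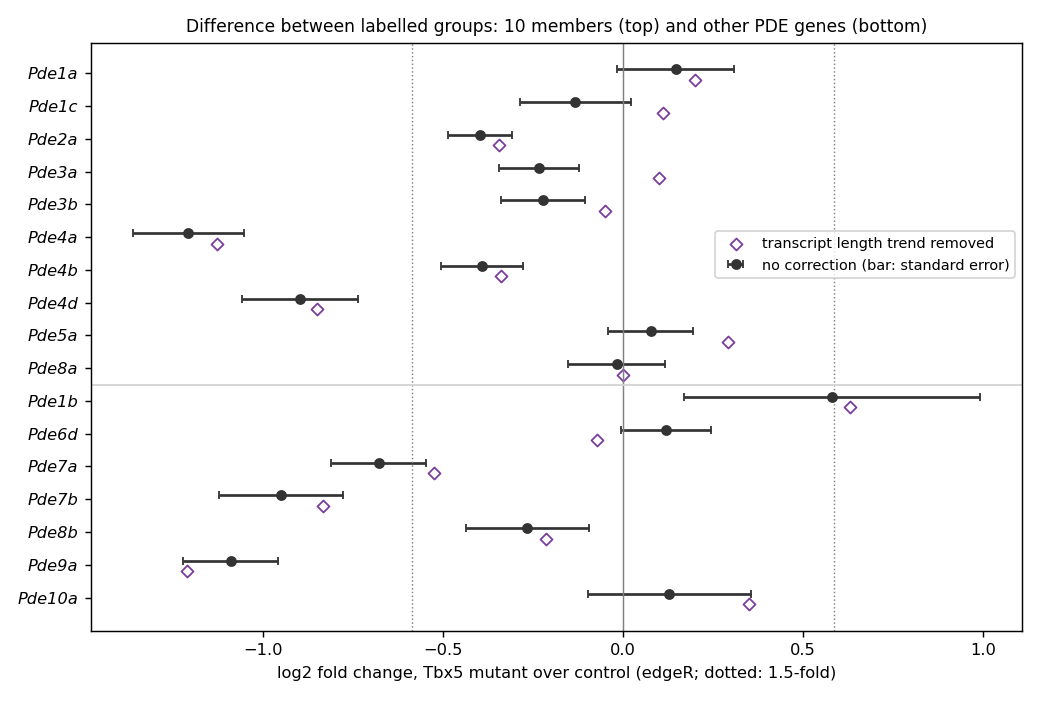
Log2 fold change of the mice labelled Tbx5 mutant over control (x axis) for the 10 members (top) and the 7 other tested PDE genes (bottom); filled circles with bars are the edgeR value and its standard error, open diamonds the value with each library's transcript length trend removed, and dotted lines a fold change of 1.5. Pde4a, Pde4d, Pde7b and Pde9a stay left of the dotted line in both, and Pde1c, Pde3a, Pde8a and Pde6d change side of 0.

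Fold changes ran with transcript length in these libraries, with a Spearman correlation of -0.316 across the 12951 tested genes that have a length, which are not independent replicates. The longest transcripts of the members were 3802 to 12302 bases, where the median of tested genes was 3469 bases. With each library's length trend removed, Pde4a was at -1.13 (adjusted p 0.000151), Pde4d at -0.85 (0.000973), Pde2a at -0.34 (0.00932) and Pde4b at -0.34 (0.0244) in edgeR. Pde3a, with the longest transcript of the 10, moved to 0.10, and Pde1c moved to 0.11, neither past the threshold.

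Levels of different genes were compared per kilobase of exon. In controls the order of mean levels was Pde2a at 15.3 ± 0.76 CPM per kilobase (SD, n = 4), Pde4b at 12.8, Pde4d at 12.1, Pde1c at 9.85, Pde3a at 8.94, Pde4a at 6.05, Pde8a at 4.55, Pde3b at 3.99, Pde1a at 2.39 and Pde5a at 2.06. Neighbours whose ranges over the 4 controls did not overlap were Pde2a and Pde4b, Pde3a and Pde4a, and Pde3b and Pde1a, and the other neighbours overlapped. In mutants Pde4d stood at rank 5 at 6.51 ± 1.52 CPM per kilobase (SD, n = 6) and Pde4a at rank 9 at 2.61 ± 0.38, and all neighbours overlapped. The order depended on the length used. With the longest transcript in place of all exons, Pde4d led the controls at 34.6 CPM per kilobase, then Pde4b at 31.5, Pde1c at 22.5 and Pde2a at 22.3, and Pde4b led the mutants at 24.0.

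Summed per kilobase of exon, the 10 members came to 78.1 ± 0.75 CPM per kilobase in controls, from 77.5 to 79.0, and to 59.8 ± 6.72 in mutants, from 50.4 to 65.8. The PDE4 members gave 31.0 ± 1.06 of this in controls and 18.9 ± 3.01 in mutants. Their share of the sum was 39.7% ± 1.41 in controls and 31.5% ± 2.22 in mutants. These sums and shares follow from the single genes and were not tested. Both depend on the length used, as the order does, and the SDs do not cover this. With the longest transcript as length the 10 members summed to 147 CPM per kilobase in controls and 108 in mutants.

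**Figure D4:**
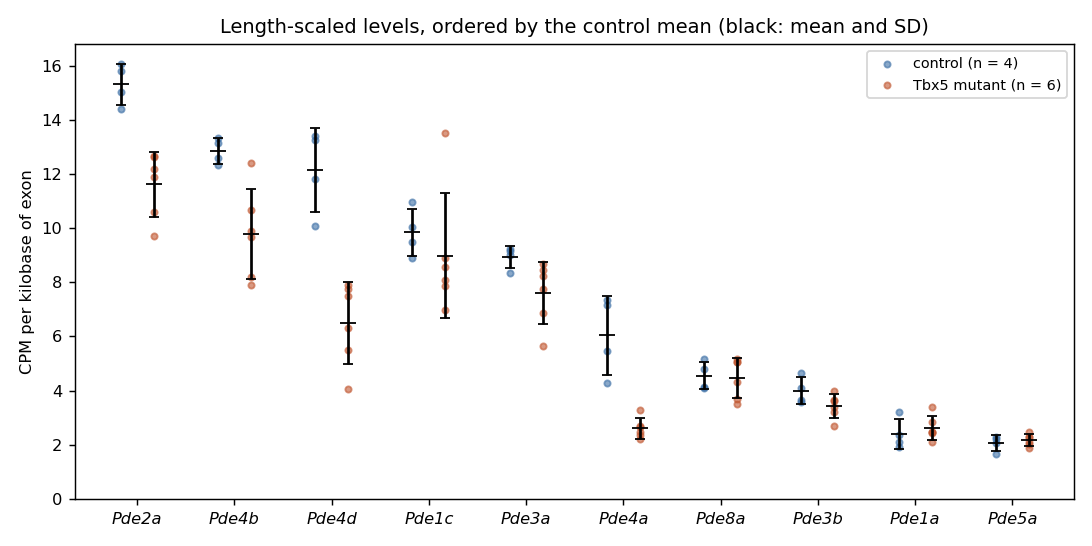
Level per kilobase of exon (CPM per kilobase, y axis from 0) of each member in control (blue, n = 4) and Tbx5 mutant mice (orange, n = 6), ordered by the control mean, with points for libraries and black marks for the mean and SD. Pde2a leads in both groups at 15.3 and 11.6, and Pde4d goes from 12.1 to 6.51 and Pde4a from 6.05 to 2.61.

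Single mice did not stand apart in the same way for every member. Of the 10 libraries, mutant M3 held the lowest CPM for Pde1c, Pde2a, Pde4b and Pde8a, and mutant M2 held the lowest for Pde3a, Pde3b and Pde4d. Without M3 the same 4 members passed the adjusted p in edgeR, with log2 fold changes of -1.18 for Pde4a, -0.86 for Pde4d, -0.35 for Pde2a and -0.34 for Pde4b. Whether the difference between genotypes itself differed between the labelled sexes was tested by an interaction term over all genes. Because Xist disagreed with the label in the 4 controls, the test on labels cannot decide whether the sexes differ. With sex as labelled, 0 of 10 members passed an adjusted p of 0.05 in edgeR or in limma. At an unadjusted p under 0.05 each tool had 2 members, Pde4d and Pde8a. Pde4d had the lowest adjusted p in edgeR, at 0.167. With the sex labels of the 4 controls exchanged, 0 passed in edgeR and 1, Pde4a, had an unadjusted p under 0.05.

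Of the 14 other PDE genes listed, 7 passed the filter on low counts, and 3 of these were called, all lower in the mutants, beside 7.16% of tested genes called lower and 8.5% called higher. Pde9a, a cGMP-specific enzyme, held 12.4, 13.1, 16.1 and 13.0 CPM in control M1, M2, F1 and F2 and 5.14 to 6.99 CPM in the mutants, with a median of 6.60 CPM. No mutant reached the lowest control, and Pde9a fell by 1.09 on the log2 scale (SE 0.13, adjusted p 5.50e-05, edgeR). Pde7b, a cAMP-specific enzyme, held 34.4 ± 5.76 CPM in controls and 17.5 ± 4.58 in mutants and fell by 0.95 (SE 0.17, adjusted p 0.00104, edgeR). Its sister gene Pde7a held 89.2 ± 12.1 and 55.8 ± 10.1 CPM and fell by 0.68 (SE 0.13, adjusted p 0.00175, edgeR). With the length trend removed Pde7a was at -0.52, under the fold change of 1.5 that a call requires. All 6 mutants lay below all controls for each of these 3 genes.

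The remaining 4 tested PDE genes did not pass. Pde8b was at -0.26 ± 0.17 (SE), Pde10a at 0.13 ± 0.23, and Pde6d, which encodes a prenyl-binding protein rather than a catalytic subunit, at 0.12 ± 0.13. Pde1b was at 0.58 ± 0.41 on 2 to 19 reads per library. Pde4c, the fourth PDE4 gene, had 5 to 14 reads per library and was not tested, nor were Pde6a, Pde6b, Pde6c, Pde6g, Pde6h and Pde11a, with at most 13 reads in any library. Of the 17 PDE genes tested in all, 7 passed the adjusted p as lower and 0 as higher, where 15.0% of tested genes passed as lower and 16.3% as higher. Their median log2 fold change was -0.23, and -0.07 with the length trend removed. At an unadjusted p under 0.05, 0 were higher in edgeR.

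The other genes of the pathway were counted from lists of enzymes that make cyclic nucleotides, their effectors, anchoring proteins and G protein alpha subunits. Of 7 tested adenylyl cyclases, 2 passed the adjusted p as lower and 1 as higher, beside 15.0% and 16.3% of tested genes. Adcy1, a calcium-stimulated cyclase, held 206 ± 54.6 CPM in controls and 77.0 ± 23.8 in mutants, a log2 fold change of -1.43 ± 0.23 (SE, adjusted p 0.000403, edgeR). Adcy7 was higher in the mutants, at 54.9 ± 8.13 CPM against 36.1 ± 6.59, with a log2 fold change of 0.61 ± 0.14 (SE, adjusted p 0.00485, edgeR). Adcy7 was under the fold change of 1.5 in 5 of 21 alternatives, at 0.51 to 0.58: with the GC trend removed and without control F1, control F2, mutant F1 or mutant M2.

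Of 6 tested guanylyl cyclases and natriuretic peptide receptors, 2 passed as lower and 0 as higher, beside 15.0% and 16.3% of tested genes. Gucy1a3, an alpha subunit of the soluble cyclase that nitric oxide activates, held 152 ± 31.0 CPM in controls and 81.5 ± 10.2 in mutants, with a log2 fold change of -0.90 ± 0.13 (SE, adjusted p 0.000184, edgeR). Of 6 tested G protein alpha subunits, 1 passed as lower and 2 as higher, beside the same 15.0% and 16.3%. Gnao1, which encodes the alpha subunit of Go, held 105 ± 6.97 and 64.8 ± 11.1 CPM, with a log2 fold change of -0.69 ± 0.12 (SE, adjusted p 0.000626, edgeR), and of -0.57, under the fold change of 1.5, with the length trend removed.

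Of 13 tested cyclic nucleotide effectors, 2 passed as lower and 4 as higher, beside 15.0% of tested genes as lower and 16.3% as higher. Rapgef4, which encodes the cAMP-activated exchange factor Epac2, fell by 0.80 on the log2 scale (SE 0.13, adjusted p 0.000429, edgeR), from 18.7 ± 2.78 to 10.7 ± 1.15 CPM. Popdc3, a Popeye gene of cAMP-binding membrane proteins, rose by 0.72 (SE 0.13, adjusted p 0.000872, edgeR), from 20.9 ± 3.12 to 34.7 ± 4.59 CPM, and was at 0.58, under the fold change of 1.5, with the length trend removed.

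Of 15 tested anchoring and scaffold genes, 5 passed as lower and 2 as higher, and 3 were called, all lower, beside 31.3% of tested genes past the adjusted p and 15.7% called. Sphkap, an anchor of type I protein kinase A, held 71.5 ± 14.5 CPM in controls and 30.0 ± 12.2 in mutants, a log2 fold change of -1.25 ± 0.22 (SE, adjusted p 0.000972, edgeR). Akap6, whose protein holds protein kinase A and PDE4D at the nuclear envelope, held 753 ± 70.9 and 492 ± 114 CPM, a log2 fold change of -0.61 ± 0.15 (SE, adjusted p 0.00864, edgeR). Akap6 was not called under 8 of 21 alternatives, at -0.58 to -0.53 under 7 of them: upper-quartile scaling, the replicate block, the GC trend removed, and without control F1 or mutant F3, M2 or M3. With the length trend removed it was at -0.24 with an adjusted p of 0.105. Akap5, an anchor at the plasma membrane, was at -1.15 ± 0.29 (SE, adjusted p 0.00901, edgeR) on 2 to 19 reads per library. The median log2 fold changes were -0.24 for the adenylyl cyclases, -0.22 for the guanylyl cyclases and natriuretic peptide receptors, -0.00028 for the effectors, -0.22 for the anchoring genes and -0.05 for the alpha subunits. With the length trend removed they were -0.14, -0.11, 0.10, -0.13 and 0.03 in the same order, so that the medians of the effectors and the alpha subunits changed sign.

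**Figure D5:**
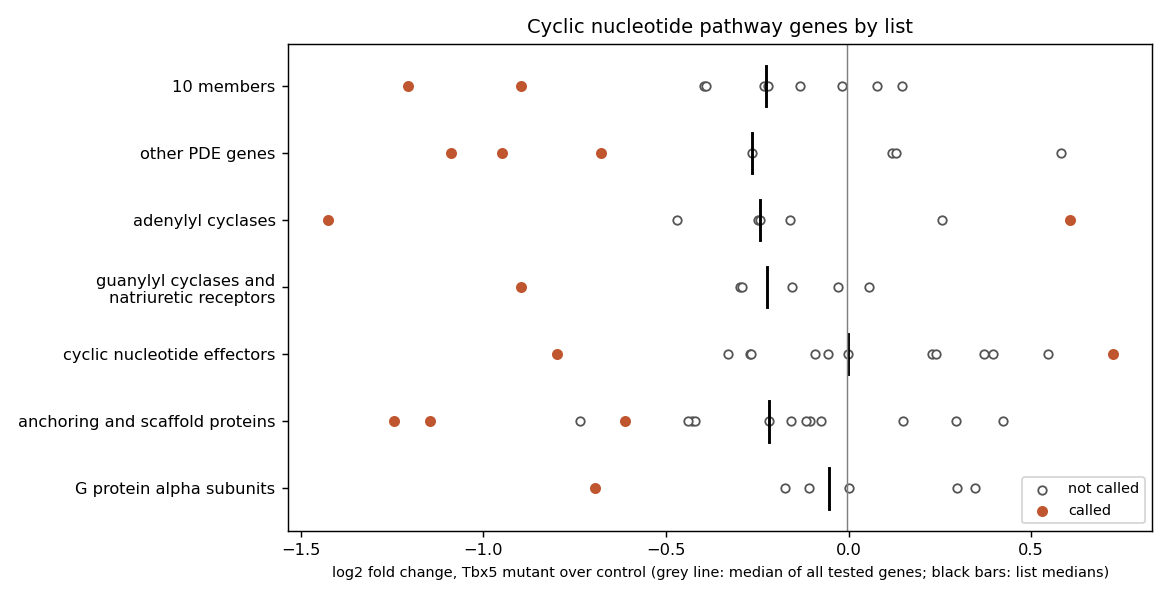
Log2 fold change of Tbx5 mutant over control (x axis, edgeR) for each tested gene of the phosphodiesterase and cyclic nucleotide lists (rows); orange points are called genes, open points are not, black bars are list medians and the grey line is the median of all tested genes. Called points of both PDE rows lie on the lower side, from -1.21 to -0.68, and the adenylyl cyclase and effector rows each hold 1 called point on the higher side, Adcy7 and Popdc3, which fall under a fold change of 1.5 in 5 and 1 of 21 alternatives.

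Of the marker sums that follow, those of fibroblasts and leukocytes did not overlap between the groups, both higher in the mutants, and the others overlapped. Fibroblast markers (7 genes) summed to 2740 to 3499 CPM in controls and 3873 to 5310 in mutants, with 3 of the 7 passing as higher and 1 as lower. Leukocyte markers (8 genes) summed to 176 to 248 CPM in controls and 296 to 405 in mutants, and the 5 that were tested all passed as higher. Cardiomyocyte markers (8 genes) summed to 75101 to 89177 CPM in controls and 61297 to 75106 in mutants, where 1 mutant, F3, reached the lowest control, with 4 passing as lower and 2 as higher. Endothelial markers (2488 to 3853 and 3305 to 4463 CPM) overlapped between the groups, with 2 of 8 passing as higher and 0 as lower. Smooth muscle and pericyte markers (394 to 473 and 437 to 851 CPM) overlapped, with 2 of 8 passing as higher and 1 as lower. Mesothelial markers (288 to 303 and 179 to 343 CPM) and adipocyte markers (0.470 to 4.14 and 0 to 20.8 CPM) overlapped as well. Lep and Irx4 had at most 3 reads in every library, and none of the markers of these lists was at 0 in all. The part of these shifts in the lower PDE levels was not tested.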

How the data were processed

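The members and the gene lists were chosen with earlier results of these data known. The authors deposited 1 table: raw counts of reads per gene and library, whole numbers without normalization, and a normalized signal per gene and library, in which the authors scaled the counts by 1 size factor per library. Its log2 fold changes, Wald scores, p-values and linear fold ratios are the authors' own comparison as deposited and were not used. The submitters' processing notes name TopHat2 2.0.11, featureCounts, FastQC, DESeq2 and build mm10, which is GRCm38. The strand setting of counting is not given in the sources used here.

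Counts were compared with edgeR 4.0.16 in R 4.3.3 (filterByExpr, TMM, quasi-likelihood test, no covariates, Benjamini-Hochberg over 13084 genes). A gene was called at an adjusted p under 0.05, a fold change over 1.5 and a mean of the authors' normalized signal over 1 in controls. Standard errors were derived from the fold change and the F statistic. Single values were also compared by two-sided exact permutation over 210 choices. Lengths came from GENCODE M21, with 22869 of 23337 genes matched. The fits were tested on simulated data. Alternatives were DESeq2 1.42.0, limma 3.58.1, other scalings, filters, prior counts and thresholds, covariates, a replicate block, length and GC trends and each library left out.

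Named with values were the members, Tbx5, the other PDE genes tested and the called genes of the pathway lists. Total counts were 5703775 to 7095141 per library, and 3 counts, the floor, are 4.23e-05% to 5.26e-05% of a library. Without molecular identifiers on the reads, this floor covers counting error only. No 2 libraries of a group agreed within sampling noise. The deposited table listed older symbols for a few genes, which were matched through RefSeq synonyms. The result of 1 marker list is not reported here.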

Additional observations from a re-analysis of the deposited data

Results flagged for a closer look

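In 3 of 72 groups of values tested, 1 library lay far from the others of its group, where chance gives about 3.6. Pde1c was at 271 CPM in mutant M1, with the other mutants at 140 to 179 CPM. Sphkap was at 53.3 CPM in mutant M1, with the other mutants at 17.4 to 29.7 CPM. Adipocyte markers summed to 20.8 CPM in mutant M2, with the other mutants at 0 to 2.51 CPM.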

How the results depend on the processing

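Of 21 alternatives to the edgeR fit for each member, Pde4a (-1.33 to -1.10), Pde4d (-0.98 to -0.78) and Pde2a (-0.45 to -0.34) kept their direction and passed an adjusted p of 0.05 in all, and Pde4b (-0.47 to -0.34) in all but 1. Correlations of same-numbered mice were -0.047 to 0.036 over 4 pairs, too few to decide whether the replicate numbers pair the mice. With a replicate block Pde4b was at -0.34 with an adjusted p of 0.0585 in edgeR. Mutants F3 and M3 have no control of the same number, so the block compared the groups on the 4 pairs alone. In each pair Xist was high in 1 mouse and low in the other. Under this block no other member changed side of 0.05, and the called members stayed the same. With the length trend removed Pde1c was at 0.11, Pde3a at 0.10, Pde8a at 0.00138 and Pde6d at -0.073. With upper-quartile scaling Pde8a was at 0.013. Leaving out 1 library in turn gave -0.295 to -0.073 for Pde1c, past the threshold without mutant M1 alone, -0.0078 to 0.132 for Pde5a, below 0 without control M2, -0.062 to 0.051 for Pde8a, above 0 in 4 of 10, -0.083 to 0.298 for Pde10a, and 1 to 2 other pathway genes called higher. Without a fold threshold 4 members were called, all 4 lower, and 24 other PDE and pathway genes, 9 of them higher. A fold over 2 left 1 member, lower, and 4 other genes, 4 lower and 0 higher. Over all genes the counts called, lower and higher were 4096, 1967 and 2129 without a fold threshold and 906, 367 and 539 with a fold over 2, and a mean count of at least 50 gave 1284, 653 of them higher. With the longest transcript as length the members summed to 147 CPM per kilobase in controls and 108 in mutants. The causes were not tested. The exchange of control sex labels was an alternative chosen after seeing the data and changed no call of a member. Reads were few for Pde1b and Akap5 (2 to 19 per library each) and for the PDE genes left untested.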
